A study of Mus musculus and Homo sapiens with 27 samples.

Results

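ICOSLG, CD40, CD80, CD86, CD83, CD69, CD44 and ICAM1 are surface genes through which B cells stimulate T cells, receive help or adhere. Every feature carrying one of these 8 names on the human lymphochip was taken, which gave 39 of 15246 features and 8 of 4604 named genes. The lymphochip is a spotted cDNA array enriched for lymphocyte genes. The symbols come from the platform annotation, and a feature is 1 spotted clone.

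ICOSLG and the B7 proteins CD80 and CD86 are ligands on antigen-presenting cells. ICOSLG engages ICOS on T cells, and CD80 and CD86 engage CD28 and CTLA4. CD40 is the TNF-family receptor by which a B cell receives the T-cell signal CD40L, and signalling through it to NF-kB is known to raise CD80, CD86, CD83 and ICAM1. IRF4 is a transcription factor that NF-kB induces in activated B cells and that is needed for plasma cell formation.

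The 4 arrays hold OCI-Ly7 cells, an established line from a diffuse large B-cell lymphoma that resembles germinal centre B cells. On each array Cy5-labelled RNA of cells labelled as expressing human IRF4 from the Vxy vector was hybridised against Cy3-labelled RNA of OCI-Ly7 with the empty Vxypuro vector. Day 2 has 1 array, day 3 has 2 and day 5 has 1, so 4 of the 27 arrays of the series enter here. The empty-vector channel carries no day in the labels, and the design text calls that control non-transduced. The other 23 arrays are of mouse B cells, and 0 mouse features are named for a counterpart of the 8 genes.

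Values are log2 ratios, RNA labelled IRF4 vector over empty vector, after centring each array on its median. A value of -1 means that the RNA labelled IRF4 vector held less than the control by 1 doubling. No label states the direction of the ratio; Cy5 over Cy3 is likely from the dyes and the titles, and if it ran the other way every sign below would turn. Of the 4 IRF4 features, 24729_1 lay above 0 on all 4 arrays (mean 0.69) and the other 3 had means of -0.45, -0.36 and 0.02. The mean of the 4 was -0.03 (limma adjusted p = 0.964), so it did not show more IRF4 RNA under the IRF4 label. By array that mean was -0.29 at day 2, 0.67 and -0.17 at day 3 and -0.32 at day 5. Whether these features lie in the vector's insert is not stated. PRDM1, a gene known to rise with IRF4, had a mean of 1.83 ± 0.34 (SE, limma adjusted p = 0.119). Each of its 3 features lay above 0 on all 4 arrays, as did 20.3% of all features. The 3 features share the same 4 arrays, so they are not separate evidence on the direction. In whole cultures, fewer cells of a type and less RNA per cell cannot be told apart, and with 1 dye orientation a dye bias of a feature cannot be told apart from its ratio.

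The arrays were uneven. The SD of all values was 2.04 on the day 5 array, against 1.25 to 1.51 on the others, and 10.3% of all features lay below -4 there, against 1.12% to 4.55%. Correlations between arrays over all features ranged from 0.31 to 0.46. The median absolute difference of a feature was 0.88 log2 units between the 2 day 3 arrays and 0.48 between day 2 and day 3 replicate 2. Of the 6 pairs of arrays, 2 differed by more than the day 3 pair, and both hold day 3 replicate 1.

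ICOSLG was lower in RNA labelled IRF4 vector and was the 1 member past the threshold at gene level, where a gene is the mean of its features. Its values were -3.49 at day 2, -3.77 and -2.41 at day 3 and -3.25 at day 5. All 4 arrays were far below 0, and the day 3 arrays held both the lowest and the highest of them. The mean was -3.23 ± 0.59 (SD, n = 4), which is 9.39-fold lower with a 95% interval of 5.47 to 16.1 (limma, SE 0.32, adjusted p = 0.0455). Across the platform 5 of 4604 genes passed, 0.109%, 3 lower (0.0652%) and 2 higher (0.0434%). Only 1 of the 8 members passed, and the same 1 had an unadjusted p under 0.05, as did 1099 of all genes, 23.9%. ICOSLG ranked 4 of 4604 by p and 44 from the lowest by mean.

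**Figure D1:**
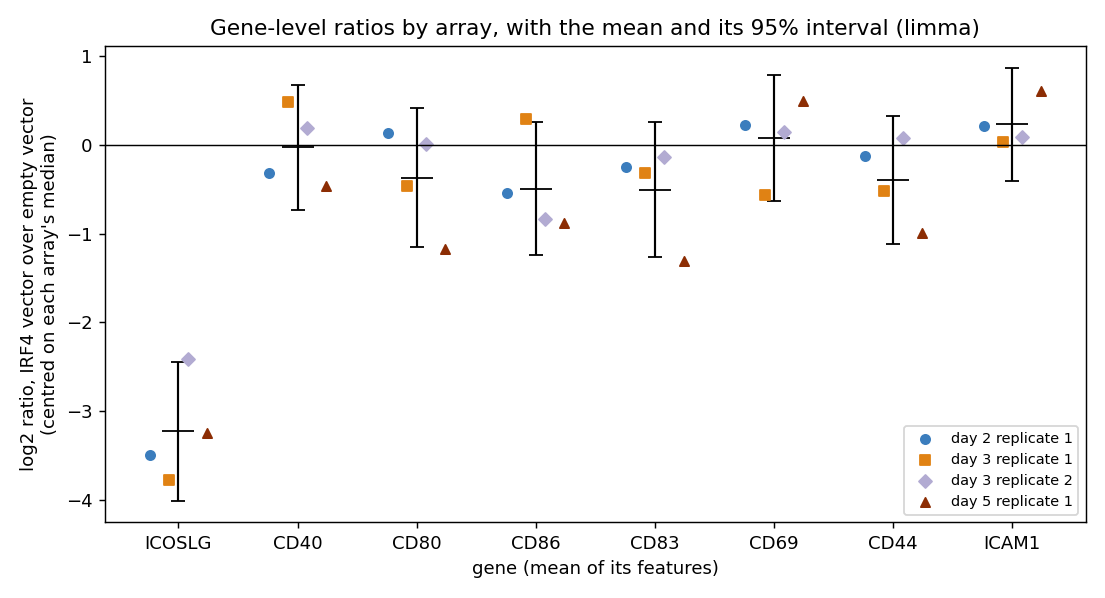
Gene-level log2 ratios (y axis, RNA labelled IRF4 vector over empty vector) of the 8 genes (x axis) on each of the 4 OCI-Ly7 arrays (coloured points), with the mean and its 95% interval from limma in black. ICOSLG sits between -3.77 and -2.41, and the intervals of the other 7 genes include 0.

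The 2 ICOSLG features differed in size. Feature 35344_1 read -4.62 at day 2, -7.48 and -4.36 at day 3 and -4.14 at day 5. Feature 32432_1 read -2.37 at day 2, -0.07 and -0.47 at day 3 and -2.36 at day 5. Both lay below 0 on all 4 arrays, but on both day 3 arrays the second was near 0. Their means were -5.15 (35.4-fold lower) and -1.32 (2.49-fold lower), a gap of 3.83 log2 units. Of the 1292 genes with exactly 2 features, 20 had a wider gap, 1.55%.

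The test at gene level rests on how these features combine. Across the 4 arrays the SD was 1.56 for 35344_1 and 1.22 for 32432_1, but 0.59 for their mean, because on day 3 replicate 1 the first was at its lowest and the second at its highest. Taken singly, neither passed over all 15246 features (limma adjusted p = 0.126 and 0.217). At that level 0 of 15246 features passed, 0%, while 3437 had an unadjusted p under 0.05, 22.5%, among them 12 of the 39 member features. By mean, 35344_1 had rank 6 from the lowest of 15246 features, and 32432_1 had rank 2387.

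The ICOSLG call was lost without any 1 of the 4 arrays, with adjusted p between 0.149 and 0.191, while the value stayed between -3.50 and -3.05. The authors' database numbers fall into a lower range (day 3 replicate 1 and day 5) and a higher one (day 2 and day 3 replicate 2), and what sets the ranges apart is not stated. With the range as a factor the adjusted p was 0.063, and the mean was -3.51 in the lower range and -2.95 in the higher one.

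**Figure D2:**
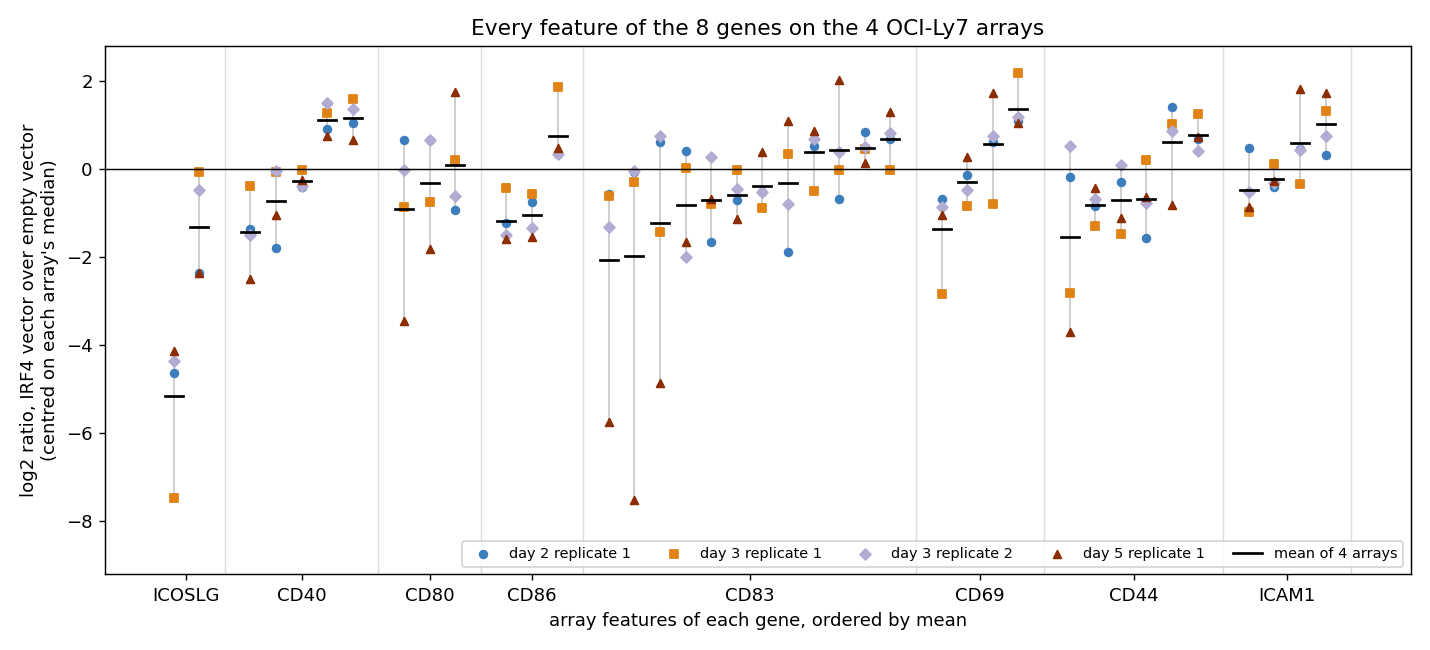
Each of the 39 features of the 8 genes (x axis, ordered by mean within a gene) with its log2 ratio (y axis) on the 4 arrays (coloured points) and the mean (black bar). The ICOSLG features lie below 0 on all arrays, features of CD40, CD86 and CD69 lie on opposite sides of 0, and 3 CD83 features drop below -4 at day 5.

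Among the other B7 ligands, CD86 had a gene-level mean of -0.49 ± 0.54 (SD, n = 4; 95% interval -1.25 to 0.26, limma adjusted p = 0.351). Feature 16175_1 of CD86 read -1.23 at day 2, -0.43 and -1.50 at day 3 and -1.59 at day 5. Feature 28698_1 read -0.74, -0.57, -1.33 and -1.55 on the same arrays. Both were below 0 on all 4 arrays and lowest at day 5. The third, 16163_1, read 0.35, 1.87, 0.34 and 0.49, above 0 on all 4, with day 3 replicate 1 far above the rest. The mean over features thus averages opposite signs, and none of the 3 passed (adjusted p from 0.173 to 0.284).

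CD80 took both signs across the arrays. Its gene-level values were 0.14 at day 2, -0.46 and 0.01 at day 3 and -1.17 at day 5, with a mean of -0.37 ± 0.59 (SD, n = 4; 95% interval -1.15 to 0.41, adjusted p = 0.474). Each of its 3 features took both signs. At day 5 they spread furthest, with 37324_1 at -3.45, 36345_1 at -1.81 and 26250_1 at 1.74.

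CD40 features lay on both sides of 0, and each kept its side. Feature 33295_1 read 1.04 at day 2, 1.59 and 1.37 at day 3 and 0.67 at day 5, and 24601_1 read 0.91, 1.28, 1.52 and 0.75. Feature 16913_1 read -1.36, -0.39, -1.49 and -2.48. The first pair lay above 0 on all 4 arrays and 16913_1 below 0 on all 4. The other 2 features were below 0 on all 4 arrays as well, with means of -0.73 and -0.26, but near 0 on some. Feature 24458_1 read -0.07 and -0.04 on the day 3 arrays, and 27399_1 read -0.007 on day 3 replicate 1. So 5 of 5 CD40 features kept their sign on every array, 2 above and 3 below. Of all features, 20.3% lay above 0 and 18% below 0 on all 4 arrays. The gene-level mean of CD40 was -0.03 ± 0.44 (SD, n = 4, 95% interval -0.73 to 0.68, limma adjusted p = 0.960). None passed singly, with adjusted p from 0.171 to 0.577.

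CD83, an immunoglobulin-family protein of activated B cells and mature dendritic cells, is spotted as 12 features. Its gene-level values were -0.25 at day 2, -0.31 and -0.14 at day 3 and -1.31 at day 5. Day 5 stood apart, and the mean was -0.50 ± 0.54 (SD, n = 4; 95% interval -1.26 to 0.25, adjusted p = 0.340). At day 5, 4 of the 39 member features lay below -4, beside 10.3% of all features. Of these, 3 were among the 12 CD83 features: 17066_1 at -7.51, 16610_1 at -5.74 and 29824_1 at -4.85. On the other 3 arrays those 3 CD83 features lay between -1.44 and 0.75. The other 9 ranged from -1.66 to 2.03 at day 5, so the low day 5 value rests on 3 features, on the array with the widest spread. The median of all genes was also lowest on that array, at -0.19. So were the medians of several gene lists, among them T and NK cell markers (-1.51), TNF-family costimulators (-1.17) and myeloid markers (-1.04). The B7, B-cell, germinal centre and plasma cell lists had their lowest median on other arrays. The part of any of these in the CD83 value was not tested. Over the 4 arrays, 3 CD83 features were below 0 throughout, 1 was above and 8 took both signs.

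CD69, a lectin of early lymphocyte activation that holds cells in lymphoid tissue, had a gene-level mean of 0.08 ± 0.45 (SD, n = 4; 95% interval -0.64 to 0.79, adjusted p = 0.876). Feature 28683_1 read 1.09 at day 2, 2.19 and 1.18 at day 3 and 1.04 at day 5. Feature 16136_1 read -0.67, -2.84, -0.86 and -1.03. They lay on opposite sides of 0 on every array, and each was most extreme on day 3 replicate 1. The other 2 CD69 features took both signs.

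The adhesion genes varied within the same range. CD44, the hyaluronan receptor, had 6 features with means from -1.55 to 0.77 and a gene-level mean of -0.39 ± 0.47 (SD, n = 4; 95% interval -1.11 to 0.33, adjusted p = 0.425). Its feature 25024_1 was below 0 on all 4 arrays (mean -0.81) and 19271_1 above 0 on all 4 (mean 0.77). ICAM1, the ligand of the integrin LFA-1, was the 1 member above 0 on all 4 arrays at gene level, at 0.21, 0.03, 0.09 and 0.61. Its mean of 0.24 ± 0.26 (SD, n = 4; 95% interval -0.40 to 0.87, adjusted p = 0.575) was smaller than its spread between features, which had means from -0.47 to 1.03. Feature 24268_1 of ICAM1 was above 0 on all 4 arrays, at 0.33, 1.31, 0.76 and 1.73.

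Counted over all 39 features, 12 lay below 0 on all 4 arrays, 7 above 0 on all 4 and 20 took both signs. These are 30.8% and 17.9%, beside 18% and 20.3% of all 15246 features. The 12 cannot be taken as independent, since 2 are ICOSLG, 3 CD40, 2 CD86, 3 CD83, 1 CD69 and 1 CD44. Features with 1 symbol are annotated to the same gene, and whether they read the same transcript was not tested. The median of the member features was -0.39, against 0.00 for all features. At gene level 6 of 8 means were below 0, beside 56.7% of all genes, with a median of -0.38 against -0.14 for all genes. ICOSLG and CD83 were below 0 on all 4 arrays, as were 21% of all genes, and ICAM1 was above on all 4, as were 17%. A count over 3 arrays cannot be lower than over 4. Without day 3 replicate 1, 11 member features were above 0 on all remaining arrays, 28.2% against 28.7% of all features, and 14 were below, 35.9% against 28.6%.

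**Figure D3:**
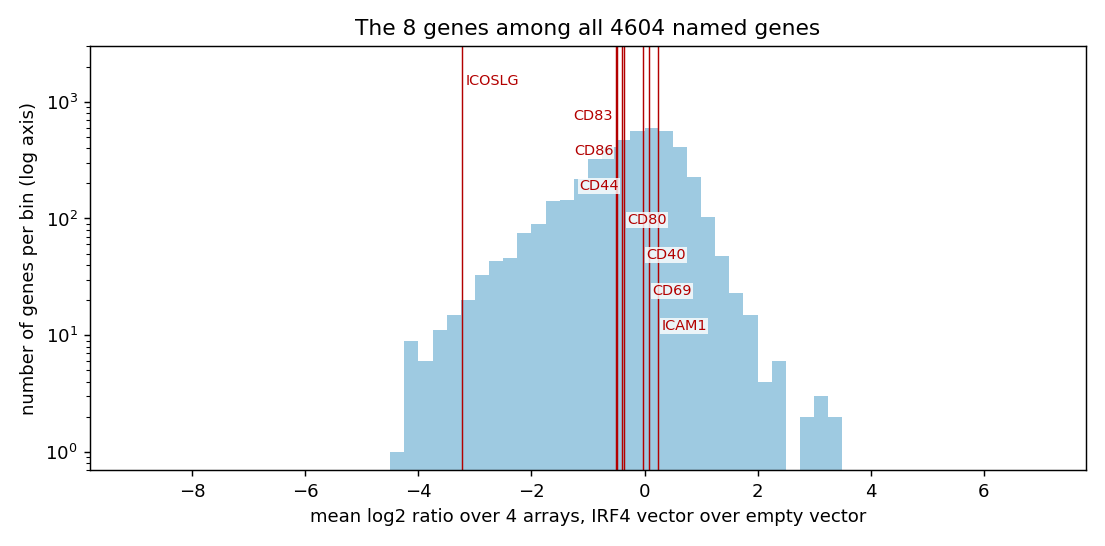
Number of named genes (y axis, log axis) by mean log2 ratio over the 4 arrays (x axis), with the 8 genes marked in red. ICOSLG at -3.23 lies in the lower tail, and the other 7 lie between -0.50 and 0.24.

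Opposite signs within a gene occurred in most of the 8 genes, and also across the platform. In 5 of the 8 (CD40, CD86, CD83, CD69 and CD44) at least 1 feature was above 0 on all 4 arrays and at least 1 below on all 4. Of all genes with 3 or more features, 244 of 1382 had such a pair, 17.7%, and of those with 4 to 6 features 120 of 551, 21.8%. Of genes with more than 6 features, as CD83 has, 44 of 108 did, 40.7%. Without centring the count among the 8 was 4, since the CD83 feature 30249_1 was then -0.125 at day 5. The SD between the feature means was 2.71 for ICOSLG, 1.17 for CD69, 1.14 for CD40, 1.09 for CD86, 0.92 for CD83, 0.90 for CD44, 0.70 for ICAM1 and 0.51 for CD80. The median over genes was 0.50 with 2 features, 0.66 with 3, 0.70 with 4 to 6 and 0.86 with more than 6. Against genes of like feature number, 6 of the 8 were above the median, and CD80 and ICAM1 were below it.

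**Figure D4:**
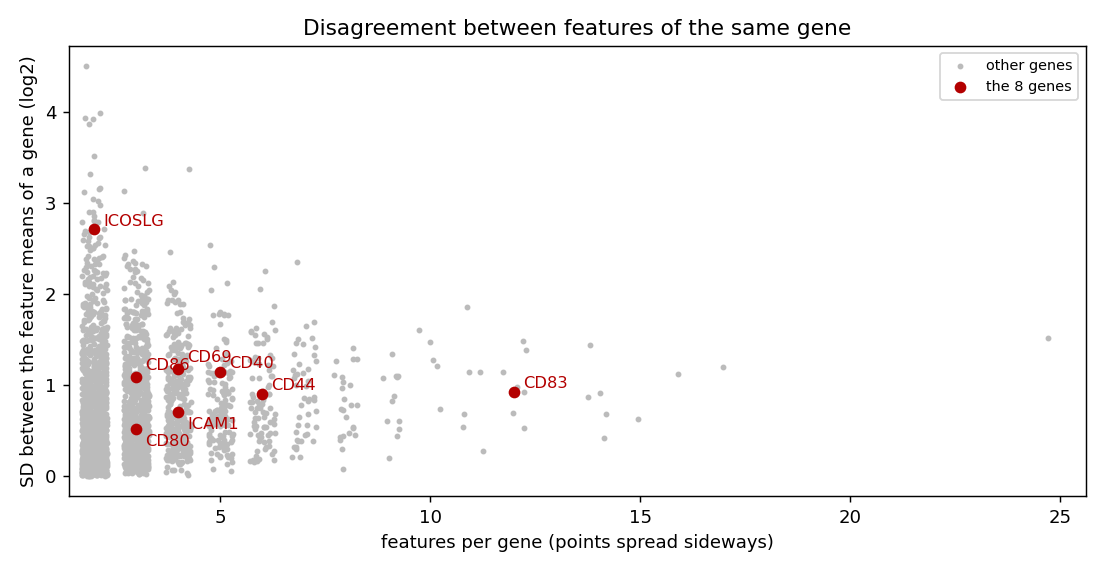
SD between the feature means of a gene (y axis, log2 units) by its number of features (x axis) for all genes with 2 or more, with the 8 genes in red. ICOSLG at 2.71 is the highest of the 8 and CD80 at 0.51 the lowest.

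No member passed the limma test of a change with day. The slope on day had 0 of 4604 genes past the threshold, 0%, with 567 at an unadjusted p under 0.05, 12.3%. Slopes were negative for 5 members and positive for 3. CD80 had the steepest at -0.44 ± 0.26 log2 units per day (SE, 95% interval -1.07 to 0.19, adjusted p = 0.600), followed by CD83 at -0.39 ± 0.26 (SE, adjusted p = 0.666). The ICOSLG slope was 0.05 (95% interval -0.72 to 0.81). With 1 array at day 2 and 1 at day 5, slopes of this size could not be told from the spread between arrays, and without day 5 the CD83 slope was 0.02.

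The partners of these genes gave 0 calls by limma at the adjusted threshold. Counts below 0 in this and the later lists stand beside 56.7% of all genes with a mean below 0. Of 8 listed B7 and CD28 partners 4 were measured, 1 above and 3 below 0, with a median of -0.64. PDCD1LG2, the PD-1 ligand PD-L2, had the smallest p at -2.98 ± 0.98 (SE, adjusted p = 0.164) on 1 feature, with -0.34 and -1.05 on day 2 and day 3 replicate 1 and -5.90 and -4.64 on day 3 replicate 2 and day 5. CTLA4, the inhibitory receptor of CD80 and CD86, lay at -0.91 ± 0.30 (SE, adjusted p = 0.167). The TNF-family costimulators had 5 of 7 measured genes below 0 (median -0.72), with array medians of -0.07 at day 2, -0.36 and -0.18 at day 3 and -1.17 at day 5. TNFSF8, the CD30 ligand, lay at -0.98 and CD70, the CD27 ligand, at -2.19 (adjusted p = 0.224 and 0.240).

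On the signalling side of CD40, 11 of 14 measured genes had a mean below 0, as did 56.7% of all genes, and none passed. The median of the list was -0.45, and by array it was -0.22 at day 2, -0.03 and -0.07 at day 3 and -0.69 at day 5. REL, the c-Rel subunit of NF-kB, was -2.60 at day 2, -1.06 and -2.21 at day 3 and -4.07 at day 5. All 4 arrays were below 0, but its mean of -2.48 ± 0.50 (SE) had an adjusted p of 0.124, and its 4 features had means from -4.18 to -0.49. RELB, a subunit of the alternative pathway, lay at -0.66 (adjusted p = 0.246).

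Of 12 measured adhesion partners 8 were below 0 (median -0.08), with CD47 at 0.80 (adjusted p = 0.169) and the integrin chain gene ITGA4 at -0.74 (adjusted p = 0.191). Other activation markers were split, 9 above and 10 below 0 of 19, with a median of -0.06. CD38, an ectoenzyme high on plasma cells, lay at 1.60 ± 0.37 (SE, adjusted p = 0.130) and was above 0 on all 4 arrays, and IL2RB, an interleukin-2 receptor chain, lay at -1.54 (adjusted p = 0.161).

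**Figure D5:**
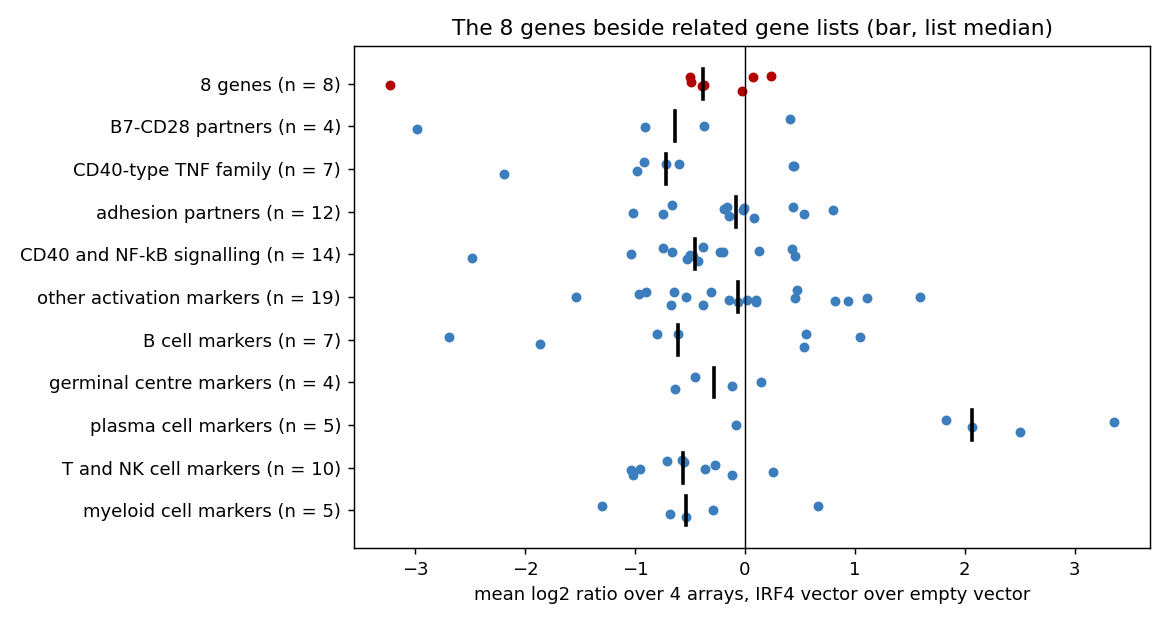
Mean log2 ratio over 4 arrays (x axis) of the 8 genes (red) and of the measured genes of each related list (blue), 1 point per gene, with the list median as a black bar. Medians lie between -0.72 and -0.06, except for the plasma cell markers at 2.07.

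Of the marker lists, 1 gene passed the threshold, and the part of other cell types or stages in the ICOSLG value was not tested. Of 5 plasma cell markers 4 were above 0, with a median of 2.07 and array medians from 1.51 to 3.32. TNFRSF17, the plasma cell receptor BCMA, rose by 3.36 ± 0.31 (SE, adjusted p = 0.0455), a call that was lost without any 1 array. Of 7 B-cell markers 4 were below 0 (median -0.61), with CD79B at -1.86 (adjusted p = 0.123) and CD72 at -2.70 (adjusted p = 0.157). The 3 above 0 were MS4A1 at 1.05, CD79A at 0.56 and BLNK at 0.54. The 12 CD79B features had means from -5.36 to 0.23. Of 4 measured germinal centre markers 1 was above 0 (BCL6 at 0.15) and 3 were below, with a median of -0.28. MYBL1 lay at -0.45 and LMO2 at -0.64 (limma adjusted p = 0.329 and 0.340). The 10 MYBL1 features had means from -1.59 to 2.71, and the 4 LMO2 features from -0.97 to 0.19. T and NK markers, 9 of 10 below 0 with a median of -0.56, and myeloid markers, 4 of 5 below 0 with a median of -0.54, gave no call. The first 2 of each by p were GNLY (-0.55), NKG7 (-0.71), CD14 (-1.31) and TYROBP (-0.68), with adjusted p from 0.133 to 0.340. Ratios do not give levels, so neither the presence of B-cell markers nor the absence of others could be read from these arrays.

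The 2 genes nearest to ICOSLG over the 4 arrays, by Euclidean distance of the gene-level values, were SGSH and PLA2G4C. SGSH, a lysosomal sulfatase, read -2.47, -2.97, -2.56 and -3.30, with a distance of 1.32 and an adjusted p of 0.0455. The phospholipase gene PLA2G4C had a mean of -3.01 (distance 1.56, adjusted p = 0.102). Likeness over 4 arrays is a description of these ratios.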

How the data were processed

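The authors deposited 1 log ratio of the 2 channels per feature and array. The deposited values were taken as log2 from their range; base, direction, scanner and any background correction or normalization are not stated there. Per the labels, Trizol was used for the RNA and reverse transcription for the dyes. Symbols came from the platform annotation: 10169 features had 1 symbol, 4 several and 5073 none, and no value was missing. Each array was centred on its median, and features sharing 1 symbol were averaged into a gene. Genes, features and the slope on day were tested 2-sided with limma 3.58.1 in R 4.3.3. Benjamini-Hochberg adjustment ran over all genes or features, with a threshold of 0.05. The tests of genes and of the slope, but not of features, were also run on simulated data. Single-channel signals were not analysed here, so no depth or background stands behind a ratio. The number of arrays, the single dye orientation and features of a gene that differ limit the precision. The design text speaks of biological repeats. The p-values rest on the spread between these 4 arrays, moderated by limma with the spread over all genes or features. In the tests of a ratio against 0, all days share 1 mean. The members, context lists and named genes (of each list, those past the threshold, else the 2 smallest p) were chosen with earlier results of these data known. Of the 3 genes nearest to ICOSLG that the rule names, 1 is not reported here. The mouse comparison that had been planned was not run, for lack of named features. Human sequences were not used here. Alternatives are given in the closing section.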

Additional observations from a re-analysis of the deposited data

Results flagged for a closer look

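Over the 39 features and 8 gene-level means, 7 of 47 had 1 of the 4 arrays far from the other 3. This is by Dixon's test at its 95% critical value, which chance flags in about 5% of groups. The share flagged among all features was not computed, so the count cannot be read as particular to the members. The arrays compared are of 3 days, so a distant array can also be a distant day. On day 3 replicate 1 these were ICOSLG feature 35344_1 at -7.48 (others -4.62 to -4.14), CD86 feature 16163_1 at 1.87 (others 0.34 to 0.49), CD69 feature 28683_1 at 2.19 (others 1.04 to 1.18) and CD69 feature 16136_1 at -2.84 (others -1.03 to -0.67). On the day 5 array they were CD83 feature 17066_1 at -7.51 (others -0.28 to -0.04), CD83 feature 16610_1 at -5.74 (others -1.32 to -0.57) and the CD83 gene mean at -1.31 (others -0.31 to -0.14). Without day 3 replicate 1, ICOSLG feature 35344_1 had a mean of -4.37. The CD83 gene mean rests in part on the same 2 features, so these flags are not independent.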

How the results depend on the processing

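ICOSLG was below 0 in 13 of 13 alternatives, from -3.50 to -2.31, and past the threshold in 4 (array weights, quantile normalization, day as a covariate, only the day 3 arrays), with adjusted p from 0.00019 to 0.230. It missed the threshold at -3.42 without centring, at -2.31 when values past 6 log2 units were dropped, at -3.23 with the median of features, the database range as a factor or a robust trend, and at -3.50 to -3.05 without 1 array. The count of members past it was then 0, against 1, and 0 to 0 without 1 array. The number of genes past it, 5 in all, was 262 with array weights, 196 with only the day 3 arrays, 94 after quantile normalization, 39 with day as a covariate, 1 without centring, 1 with the median of features, 0 with the range or a robust trend, and 0 to 1 without 1 array. Of features it was 873 with array weights, 715 with only the day 3 arrays and 4 without centring, of which members were 6, 1 and 0. The fit of the day 3 arrays alone pooled the spread over the platform: every feature had an SE of 0.753 and the median SE over genes was 0.551, so its adjusted p of 0.00019 for ICOSLG rests on that pooled spread. For slopes, 0 to 277 genes passed without 1 array. Without centring the median of all genes moved by -0.193. The counts of member features on 1 side of 0, in alternatives chosen after seeing the data, were 12 below and 7 above with all arrays, 13 and 6 without centring, and 14 to 15 and 7 to 11 without 1 array, where the shares of all features were 21.4% to 28.6% below and 22.9% to 28.7% above. Genes with features on both sides were 5, against 4 without centring and 5 to 6 without 1 array. Members near 0 turned sign. CD40 was 0.015 with array weights, 0.34 with only the day 3 arrays and -0.20 to 0.12 without 1 array. CD69 was -0.12 without centring, -0.046 after quantile normalization, -0.21 with only the day 3 arrays and -0.064 to 0.29 without 1 array. CD80 feature 26250_1 was -0.09 without centring, -0.030 after quantile normalization, -0.40 with array weights, -0.20 with only the day 3 arrays and -0.44 to 0.45 without 1 array, and CD80 feature 36345_1 was 0.33 with array weights and -0.63 to 0.20 without 1 array. CD83 feature 29824_1 was 0.016 with array weights, CD83 features 19239_1 and 27545_1 ranged from -0.10 to 0.80 and from -0.77 to 0.22 without 1 array, and CD69 feature 24561_1 was -0.015 with only the day 3 arrays. Slopes turned for ICOSLG (-0.017 with array weights) and CD86 (0.024 after quantile normalization), and without 1 array ranged from -0.078 to 0.40 for ICOSLG, -0.40 to 0.66 for CD40, -0.31 to 0.27 for CD86, -0.54 to 0.023 for CD83, -0.44 to 0.35 for CD69 and -0.15 to 0.27 for ICAM1. For every change of sign or call named here the cause was not tested. No paired analysis was possible because the day 2, day 3 and day 5 arrays share only the number 1 and each ratio is tested against 0. Only the day 3 titles state a repeat number. The number 1 of the day 2 and day 5 arrays was assigned here, so it does not link arrays across days. The database range, which comes from the labels, was fitted as a factor, as given above. The planned mouse alternatives were not run, since no mouse feature is named for these genes. The 4 arrays of 1 dye orientation, without single-channel signals, limit what depth of signal can be stated.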
